A study of Mus musculus with 19 samples.

Results

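Scml4, Scn8a, Ifi213, Pgm2l1 and Acpp are 5 genes with lower array values in follicular helper T (Tfh) cells that were positive for a BCL6-YFP reporter than in Tfh cells that were negative for it. They are 5 of 9930 mouse genes that passed a filter on low values, and 5 of 18193 genes with a probe set annotated with only that gene's symbol. They were picked by that contrast, so their difference between YFP-positive and YFP-negative cells is given as a description, and the calls that picked them support nothing here. For each gene the probe set of highest mean level across the 19 arrays stands for it. All 5 passed the filter, which asks for a log2 value of 4 on at least 2 arrays. Scn8a reached that value on 7 of 19 arrays, among them all 4 YFP-negative arrays, and Scml4 on 17.

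The arrays measured sorted CD4+ T cells of C57BL/6J mice in 6 groups. Immunized mice gave lymph node cells that were CXCR5hi PD-1hi YFP-BCL6+ (here YFP-positive, n = 4), CXCR5hi PD-1hi YFP-BCL6- (YFP-negative, n = 4), Bcl6yfp/+ CXCR5hi PD-1hi (n = 3), Bcl6+/+ CXCR5hi PD-1hi (n = 3), or CXCR5lo PD-1lo (n = 3). Naive CD4+ cells (n = 2), sorted as CD44lo CD62Lhi, came from the spleen of unimmunized mice. According to the protocols, OT-II cells, whose transgenic receptor sees an ovalbumin peptide, carried Bcl6yfp/+ and were put into congenic hosts, which then received NP-OVA in complete Freund's adjuvant under the skin. That text is given for every sample, so it does not make clear how far it covers the naive cells. Nor does it say how the Bcl6+/+ cells, which have no reporter allele, were obtained. Cells were collected at day 10 on YFP-positive replicate 4, YFP-negative replicates 1 and 4, and Bcl6+/+ replicates 1 and 2, and at day 7 on the other immunized arrays. The Bcl6yfp/+ and Bcl6+/+ labels name no YFP gate, and these 6 arrays are called unsorted Tfh below. The number of arrays limits the precision.

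Tfh cells help B cells in germinal centres and depend on BCL6, a transcriptional repressor that they express at high levels. CXCR5 draws them into B cell follicles, and PD-1 is an inhibitory receptor they carry in abundance. Cells of the CXCR5lo PD-1lo gate are activated helper cells with lower levels of both receptors. The 5 genes have unrelated roles. Scml4 belongs to the sex comb on midleg family of Polycomb group proteins, which take part in gene silencing through chromatin. Scn8a encodes the pore-forming subunit of a voltage-gated sodium channel best known from neurons. Ifi213 is a mouse gene of the PYHIN family, interferon-induced proteins of which several sense DNA. Pgm2l1 encodes an enzyme that makes glucose bisphosphate, a cofactor of phosphoglucomutases. Acpp, whose newer symbol is Acp3, encodes prostatic acid phosphatase, whose membrane form can turn AMP into adenosine.

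On assembly GRCm38.p6 the genes lie on 5 chromosomes. Scml4 is at chr10:42858077-42960782, Scn8a at chr15:100869863-101045938, Ifi213 at chr1:173566280-173599348, Pgm2l1 at chr7:100227273-100278872 and Acpp at chr9:104288240-104337722. RefSeq promoters of this build are shown for Ifi213, for Pgm2l1 and Acpp, whose levels ran together across arrays, and for the upstream of 2 Scn8a starts. Each is the 250 bases before the start, read 5′ to 3′ on the gene's strand: chr1:173599273-173599522 on the minus strand, chr7:100227357-100227606 on the plus strand, chr9:104337723-104337972 on the minus strand and chr15:100870395-100870644 on the plus strand. Capitals mark matches to CTTTGA (a TCF/LEF motif), GAAA, any 2 bases and GAAA (an interferon-stimulated response element, ISRE) or CACCC (a KLF motif), on either strand.
Ifi213: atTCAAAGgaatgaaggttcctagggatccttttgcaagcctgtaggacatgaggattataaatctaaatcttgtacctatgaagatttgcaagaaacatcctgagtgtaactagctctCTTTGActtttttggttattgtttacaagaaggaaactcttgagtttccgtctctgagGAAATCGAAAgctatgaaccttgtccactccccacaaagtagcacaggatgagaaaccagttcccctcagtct
Pgm2l1: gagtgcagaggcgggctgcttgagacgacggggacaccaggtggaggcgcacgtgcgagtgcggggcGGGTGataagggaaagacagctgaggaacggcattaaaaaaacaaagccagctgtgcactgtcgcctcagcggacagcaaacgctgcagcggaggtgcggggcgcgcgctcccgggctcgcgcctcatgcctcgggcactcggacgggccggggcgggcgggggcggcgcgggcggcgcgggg
Acpp: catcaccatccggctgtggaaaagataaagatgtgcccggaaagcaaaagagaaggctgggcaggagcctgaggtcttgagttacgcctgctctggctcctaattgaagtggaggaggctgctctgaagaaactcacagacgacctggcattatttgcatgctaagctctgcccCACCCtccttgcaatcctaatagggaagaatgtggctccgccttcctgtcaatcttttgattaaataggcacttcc
Scn8a: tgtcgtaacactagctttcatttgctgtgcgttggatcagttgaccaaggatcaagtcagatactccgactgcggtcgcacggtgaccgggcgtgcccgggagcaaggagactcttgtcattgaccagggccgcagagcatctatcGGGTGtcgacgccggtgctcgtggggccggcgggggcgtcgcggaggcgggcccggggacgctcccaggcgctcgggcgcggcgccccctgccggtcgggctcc

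The Ifi213 promoter held CTTTGA in 2 places, at -248 and -131, and 1 ISRE letter match, GAAATCGAAA, at -73, counting bases back from the start. Of 32851 promoters of this length, 13.83% held CTTTGA and 2.98% held the ISRE letters. A CACCC match lay at -183 for Pgm2l1, -76 for Acpp and -104 for the upstream Scn8a start, and 52.01% of all promoters held one. The second Scn8a start also had one, at -167. None of these windows held the BCL6 letters TTCCTNGAA (1.31% of promoters), the STAT letters TTCNNNGAA, which include the BCL6 letters (7.02%), or the ETS letters ACCGGAAGT (0.8%). The Pgm2l1 window was 71.2% GC with 32 CpG and the upstream Scn8a window 68.0% with 30, while Acpp had 50.4% with 5 and Ifi213 40.4% with 2. The medians of all promoters were 52.4% and 6. The matches are letters only and describe no binding.

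The sort markers stood where the gates put them. Cxcr5 averaged log2 13.9 ± 0.13 in YFP-positive, 13.7 ± 0.04 in YFP-negative, 13.5 ± 0.53 in Bcl6yfp/+ and 13.8 ± 0.13 in Bcl6+/+ cells, against 10.1 ± 0.73 in CXCR5lo PD-1lo and 2.33 ± 0.09 in naive cells (SD). All 5 CD4 T cell markers averaged over log2 8 in every group. Bcl6 itself averaged 14.26 ± 0.25 on the 4 YFP-positive arrays, against 13.91 ± 0.20 on the 4 YFP-negative arrays (SD). These ranges overlapped (14.08 to 14.62 against 13.70 to 14.14), and Bcl6+/+ cells averaged 14.35. Xist was above log2 13 on YFP-positive replicates 1 to 3, YFP-negative replicates 2 and 3, all CXCR5lo PD-1lo arrays and naive replicate 1. On the other arrays Xist was at the floor and the Y-linked Eif2s3y at 12.89 or more. All 6 unsorted Tfh arrays were of that second kind, so a comparison of them with CXCR5lo PD-1lo cells cannot be told apart from sex. The arrays also fell into 7 sets by the shape of their value distributions, which are taken as sets normalized together. In sets 1, 2 and 3, equal replicate numbers came together from both reporter groups and from CXCR5lo PD-1lo cells. The fourth reporter pair was joined in set 4 by the first naive array. The second naive array lay in set 5 beside the first Bcl6yfp/+ array. Set 6 contained the other 2 arrays of Bcl6yfp/+ cells along with Bcl6+/+ replicates 2 and 3, and set 7 the remaining Bcl6+/+ array. No set held both reporter-sorted and unsorted Tfh arrays. For every gene below, the place of unsorted Tfh arrays against the reporter groups therefore cannot be told apart from set.

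Scml4 had the lowest difference of all 9930 genes between the reporter groups. Its level was 4.14, 3.803, 4.28 and 3.48 on YFP-positive replicates 1 to 4, against 10.31, 8.19, 8.63 and 8.02 on YFP-negative replicates 1 to 4 (log2 expression values, as for every level below). The groups lay far apart, with 3.74 between the highest YFP-positive and the lowest YFP-negative array. The difference of means was -4.86 (SD 0.88 over 4 same-numbered pairs), or 29.1-fold lower in YFP-positive cells. The second Scml4 probe set did not show this separation: it averaged 2.58 on YFP-positive arrays, against 2.94 on YFP-negative arrays, with overlapping ranges. It was near the floor on most arrays and reached 6.10 on CXCR5lo PD-1lo replicate 3 and 6.35 on naive replicate 1, while naive replicate 2 had 2.55. Unsorted Tfh arrays fell next to YFP-negative ones: the level was 6.94, 9.42 and 9.59 in Bcl6yfp/+ cells and 8.73, 10.40 and 8.997 in Bcl6+/+ cells. All 6 were above every YFP-positive array and 4 were within the YFP-negative range. CXCR5lo PD-1lo cells had 12.86, 13.17 and 12.995 and naive cells 12.996 and 12.81, so the gene was highest in these 2 groups, whose ranges overlapped. From low to high the order was YFP-positive, Bcl6yfp/+, YFP-negative, Bcl6+/+, naive and CXCR5lo PD-1lo, with a gap in range after the first and after the fourth group. YFP-positive cells were 543-fold lower than CXCR5lo PD-1lo cells and YFP-negative cells 18.6-fold lower, as ratios of means of log2 values. Only 2 of 4 YFP-positive arrays reached log2 4, so the 29.1-fold and 543-fold ratios depend on the floor.

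Scn8a had its lowest levels in naive and CXCR5lo PD-1lo cells, the groups in which the other 4 genes were high. Its level was 2.91, 3.69, 2.65 and 5.55 on YFP-positive arrays, against 8.26, 5.81, 6.77 and 8.79 on YFP-negative arrays. The groups did not overlap, but only 0.26 separated YFP-positive replicate 4 from YFP-negative replicate 2. The difference of means was -3.71 (SD 1.36 over 4 pairs), 13.1-fold lower in YFP-positive cells, a ratio that depends on the floor, since 3 of 4 YFP-positive arrays were under 4. Unsorted Tfh cells had low levels, 3.08, 2.74 and 3.81 in Bcl6yfp/+ cells and 3.63, 4.61 and 5.66 in Bcl6+/+ cells. All 6 were below every YFP-negative array, and 1 was above every YFP-positive array. CXCR5lo PD-1lo cells had 2.53, 2.27 and 2.23 and naive cells 2.18 and 2.18, which is the floor of the scale. The channel transcript was therefore measured above 4 only in Tfh gates, on 4 of 4 YFP-negative, 2 of 3 Bcl6+/+ and 1 of 4 YFP-positive arrays. A second probe set also separated the reporter groups, averaging 2.57 on YFP-positive arrays, against 6.17 on YFP-negative arrays, while 3 further probe sets stayed at or under 2.30 on all arrays. Within the reporter groups the day 10 arrays had the higher Scn8a levels. In YFP-positive cells the 1 day 10 array had 5.55, against a day 7 mean of 3.08. In YFP-negative cells the day 10 mean was 8.52, against 6.29. In both groups every day 10 array had Y-linked transcripts and every day 7 array Xist, so day and sex cannot be told apart. In Bcl6+/+ cells the day 10 mean was 4.12 and the day 7 array 5.66, the opposite order.

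Ifi213 was high everywhere and lowest in YFP-positive cells. Its level was 10.78, 10.98, 10.32 and 10.55 on YFP-positive arrays, against 12.60, 12.33, 11.89 and 11.95 on YFP-negative arrays. The groups did not overlap, with a gap of 0.90, and the difference was -1.53 (SD 0.22 over 4 pairs), or 2.89-fold lower in YFP-positive cells. Unsorted Tfh cells had 12.61, 11.88 and 12.08 with Bcl6yfp/+ and 11.76, 12.33 and 12.08 with Bcl6+/+. All 6 were above every YFP-positive array, and 3 were within the YFP-negative range. CXCR5lo PD-1lo cells had 12.15, 12.90 and 12.75 and naive cells 13.15 and 12.88. After YFP-positive cells, each neighbour in the order Bcl6+/+, Bcl6yfp/+, YFP-negative, CXCR5lo PD-1lo and naive overlapped the one before it. The second Ifi213 probe set averaged 4.57 on YFP-positive arrays, against 6.67 on YFP-negative arrays, and 6.27 to 6.92 in the other groups.

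In Pgm2l1 and Acpp, unlike in Scml4, Bcl6yfp/+ cells overlapped YFP-positive cells and naive cells had the highest levels. Pgm2l1 had 7.25, 7.74, 7.69 and 8.20 on YFP-positive arrays, against 9.57, 8.96, 8.90 and 9.49 on YFP-negative arrays, a difference of -1.51 (SD 0.54 over 4 pairs, 2.85-fold lower). Unsorted Tfh cells lay below the YFP-negative arrays here, with 7.40, 7.90 and 8.17 in Bcl6yfp/+ and 8.58, 8.51 and 8.62 in Bcl6+/+ cells. The 3 Bcl6yfp/+ arrays were inside the YFP-positive range and the 3 Bcl6+/+ arrays above it. CXCR5lo PD-1lo cells had 8.88, 9.05 and 8.53 and naive cells, the highest group, 9.61 and 9.82. CXCR5lo PD-1lo levels overlapped those of Bcl6+/+ and of YFP-negative cells. Its 2 other probe sets had lower means in YFP-positive cells too, by 1.19 and 1.45 on the log2 scale, but with overlapping groups. These probe sets placed unsorted Tfh cells differently: 1 averaged 7.04 in Bcl6yfp/+ and 7.67 in Bcl6+/+ cells, against 8.01 in YFP-positive cells, and the other 3.93 and 3.54, against 4.40.

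Acpp had 6.69, 6.66, 6.76 and 7.22 on YFP-positive arrays, against 8.50, 8.21, 7.77 and 8.29 on YFP-negative arrays. The difference was -1.36 (SD 0.39 over 4 pairs), or 2.57-fold lower, and the gap between the groups 0.54. Bcl6yfp/+ cells had 6.53, 6.84 and 6.51, overlapping YFP-positive cells, while Bcl6+/+ cells had 8.53, 7.74 and 7.89. Each of the 3 Bcl6+/+ arrays was above every YFP-positive and every Bcl6yfp/+ array. CXCR5lo PD-1lo cells had 8.21, 8.56 and 8.08 and naive cells 9.28 and 9.61. YFP-negative, Bcl6+/+ and CXCR5lo PD-1lo ranges overlapped along the order, and naive cells stood alone at the top. The other 2 Acpp probe sets were at or under 2.74 on all arrays.

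**Figure D1:**
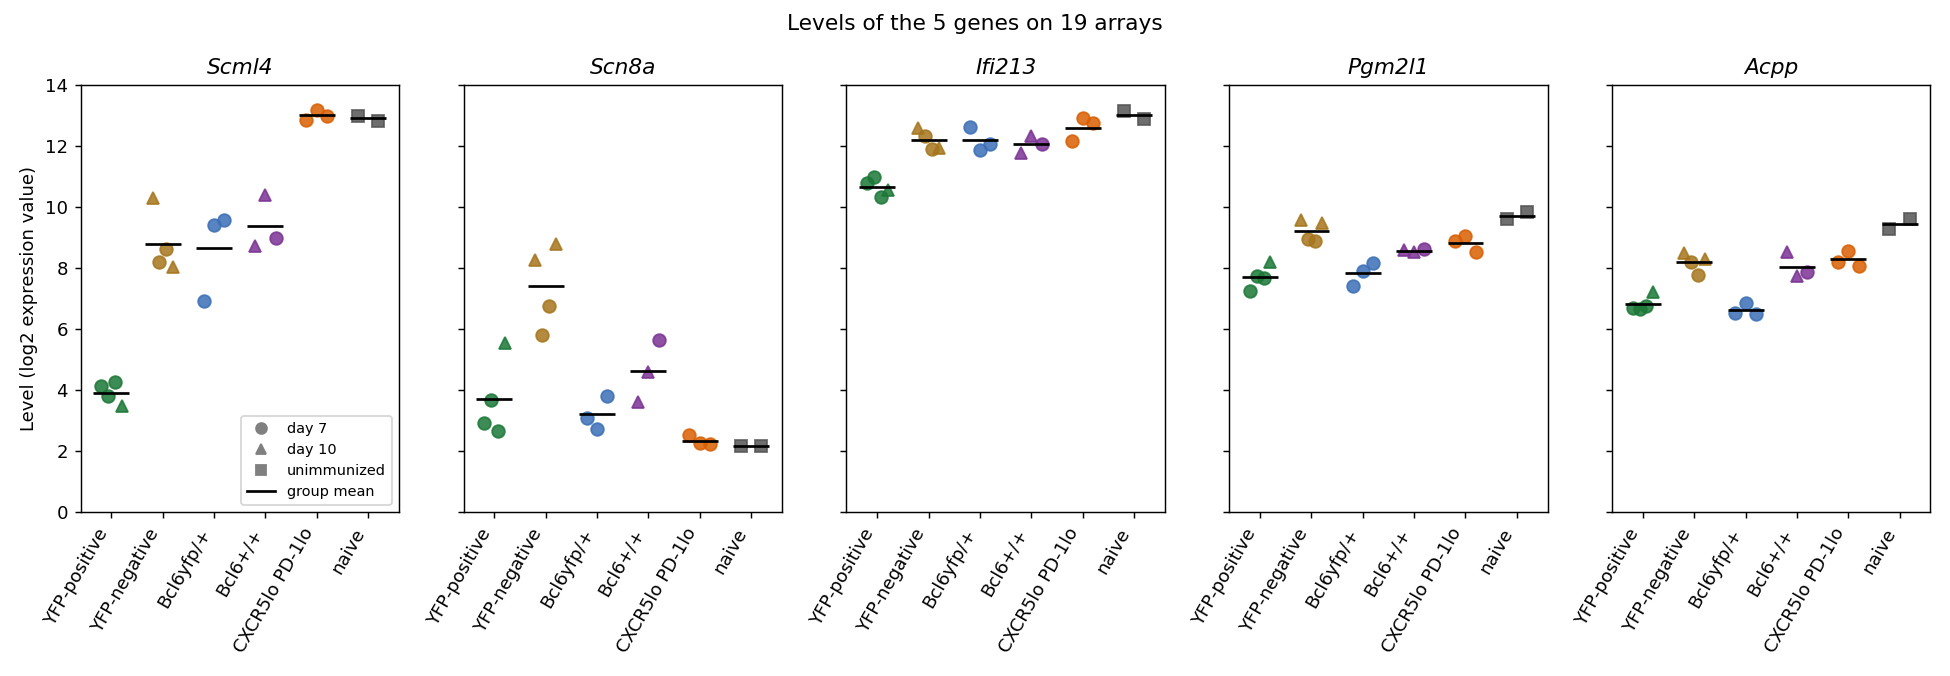
Levels of the 5 genes (y axis, log2 expression value) on each of the 19 arrays in 6 groups (x axis), with day 7, day 10 and unimmunized arrays as circles, triangles and squares and group means as lines. Scml4 falls into 3 steps with YFP-positive arrays at 3.48 to 4.28, Scn8a is above 5.8 in YFP-negative cells only, and Acpp of Bcl6yfp/+ cells (6.51 to 6.84) lies with that of YFP-positive cells.

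Groups that do not overlap have negative differences in every same-numbered pair, as the choice of genes fixes, so only their sizes are given. YFP-positive minus YFP-negative was -6.17, -4.38, -4.35 and -4.55 for Scml4 and -5.35, -2.12, -4.12 and -3.24 for Scn8a in pairs 1 to 4. Pair 1, which sets day 7 against day 10 and differs in Xist and Y-linked transcripts, had the largest size for each gene. In pairs 2 to 4, of equal day and sex-linked transcripts, the mean difference was -4.43 for Scml4, -3.16 for Scn8a, -1.44 for Ifi213, -1.24 for Pgm2l1 and -1.21 for Acpp. The plasma cell gene Jchain was at 8.45 and 12.42 in pair 1 (YFP-positive and YFP-negative) and at most 3.06 in both members of pairs 2 to 4. Sdc1, also of the plasma cell list, was at 2.41 and 6.54 in pair 1 and at 2.47 and 4.998 in pair 4. Others of that list, Xbp1 (11.33 and 11.30) and Tnfrsf17 (2.12 and 2.09), were nearly equal in pair 1. The myeloid gene Lyz2 was at 6.73 and 10.98 in pair 1. Of its list, Cst3 was at 13.2 and 13.6 there, and Cd14, Csf1r, Itgam, Itgax, Adgre1 and Siglech were below log2 3 on all arrays of both groups. The naive T cell gene Il7r was lower in the YFP-positive array of every pair, with 7.72, 7.05, 6.64 and 7.90 on YFP-positive arrays, against 11.19, 9.78, 8.55 and 10.64 on YFP-negative arrays. The summed level of the 4 naive T cell genes was 12.50 to 13.70 on YFP-positive arrays, against 13.25 to 14.01 on YFP-negative arrays. Whether plasma, myeloid or naive cells had a part in the reporter contrast was not tested. In limma's fit over all genes, 8 of 9930 genes (0.0806%) were called lower in YFP-positive cells, of 0.121% called either way, and the 5 genes were among them, as the choice fixes. Groups did not overlap with YFP-positive lower in 229 genes (2.31%), again the 5 among them. The other called genes were Klf2 (-3.68), S1pr1 (-3.33) and Gm11346 (-3.04). The smallest difference inside was that of Acpp (-1.36), and the nearest genes outside the calls were Kifc2 (-1.70) and Eif4e3 (-1.06).

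**Figure D2:**
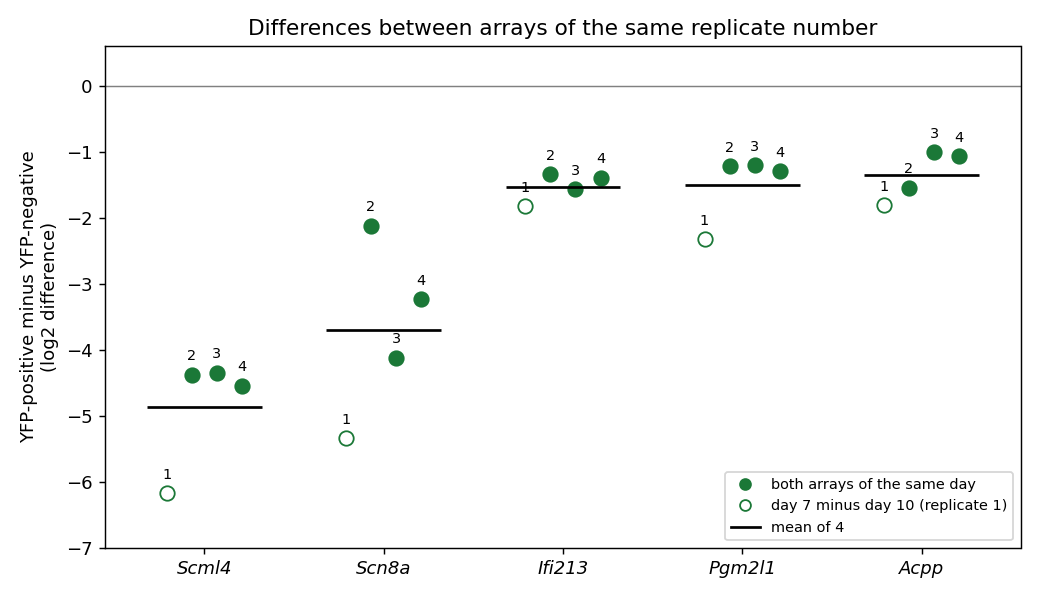
Difference between the YFP-positive and the YFP-negative array of the same replicate number (y axis, log2 difference) for the 5 genes (x axis), with replicate numbers printed and the mean of 4 as a line. The choice of genes puts all 20 points below 0, and the open circles of replicate 1 (day 7 minus day 10) are the lowest for each gene.

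The 11 arrays of the other 4 groups took no part in the choice, so differences among them could be tested. Limma was fitted to these arrays over all 9930 genes, and a gene was called at a Benjamini-Hochberg adjusted p under 0.05. The arrays did not share a common scale: the median difference of all genes was 0.50 between unsorted Tfh and naive cells, 0.06 between unsorted Tfh and CXCR5lo PD-1lo cells, 0.46 between CXCR5lo PD-1lo and naive cells, and -0.26 between Bcl6yfp/+ and Bcl6+/+ cells. Centring every array gave medians of -0.03, 0.20, -0.22 and -0.01 for these 4. Where a difference is given relative to the median, it is that of all genes as deposited. RNA of sorted pools cannot tell fewer cells with a transcript from less of it in each cell.

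Unsorted Tfh cells were lower than naive cells in Scml4, Pgm2l1 and Acpp and higher in Scn8a. Of the 5 genes 4 were called, where 23.6% of all genes were called, 19.1% higher and 4.55% lower. Scn8a, counted among the 4, passed the filter only through Tfh arrays, as 0 of 2 naive arrays reached log2 4. The filter thus favoured its direction, and nothing is drawn from its call. All 5 had groups that did not overlap, 4 of them lower and Scn8a higher in unsorted Tfh cells, as had 6.69% (lower) and 25.6% (higher) of all genes. Scml4 averaged 9.01 in unsorted Tfh and 12.90 in naive cells, a difference of -3.89 ± 0.65 (SE, limma adjusted p = 0.0017), or -4.40 relative to the median. Acpp averaged 7.34 and 9.45, a difference of -2.11 ± 0.29 (limma adjusted p = 0.000428), or -2.61 relative to the median. For Pgm2l1, with 8.20 in unsorted Tfh and 9.71 in naive cells, the difference was -1.52 ± 0.28 (limma adjusted p = 0.00277), or -2.02 relative to the median. These 3 calls held in all 10 other settings and without each of 8 arrays. The Scn8a difference of 1.74 ± 0.47 (limma adjusted p = 0.0217) was against naive arrays at the floor and was 1.24 relative to the median. The second Scn8a probe set differed by 0.13 (limma adjusted p = 0.926 over probe sets), with naive replicate 2 at 3.76. The call of the first was lost without either naive array (adjusted p 0.127 and 0.124), in the unfiltered fit (0.0583) and in 5 other settings. Ifi213 differed by -0.90 ± 0.31, or -1.40 relative to the median, and was not called (limma adjusted p = 0.0587), though quantile normalization and array centring each gave a call (0.032 and 0.038). The 5 genes had a median of -1.52, against 0.50 over all genes. In set 5, which holds an array of each group, Bcl6yfp/+ minus naive was -5.88 for Scml4, -3.08 for Acpp, -2.42 for Pgm2l1, -0.28 for Ifi213 and 0.90 for Scn8a, both arrays having Y-linked transcripts. The call count over all genes was 5015 without Bcl6yfp/+ replicate 1, 992 without naive replicate 1 and 1153 without naive replicate 2, in place of 2344. Of the called genes 80.7% were higher in unsorted Tfh cells, against 59.8% after quantile normalization and 53.7% after centring.

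Against CXCR5lo PD-1lo cells, Scml4 was again the gene with the large difference. Unsorted Tfh cells averaged 9.01 and CXCR5lo PD-1lo cells 13.01, a difference of -3.998 ± 0.57 (SE, limma adjusted p = 0.00133) in groups that did not overlap. Of all genes 8.45% had unsorted Tfh cells lower without overlap, and 5.18% higher, as Scn8a did. Acpp, with 7.34 in unsorted Tfh and 8.29 in CXCR5lo PD-1lo cells, was called lower (-0.94 ± 0.25, limma adjusted p = 0.0427), and Scn8a, with 3.92 and 2.35, was called higher (1.57 ± 0.40, limma adjusted p = 0.037). Both Scn8a means were under the filter, which the gene passed only through Tfh arrays (0 of 3 CXCR5lo PD-1lo, 0 of 2 naive and 0 of 3 Bcl6yfp/+ arrays reached 4), so the size of its call depends on the floor here and against naive cells. With Scn8a counted, 3 of 5 genes were called, where 8.06% of all genes were called, 3.59% higher and 4.47% lower. The Pgm2l1 difference was -0.62 ± 0.24 (limma adjusted p = 0.167) and that of Ifi213 -0.48 ± 0.27 (0.379). Relative to the median of all genes, 0.06, the differences were -4.06 for Scml4, -1.002 for Acpp, -0.68 for Pgm2l1, -0.54 for Ifi213 and 1.52 for Scn8a, and the median over the 5 before that was -0.62.

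The calls of Acpp and Scn8a in that comparison were not firm. Acpp was called in 4 of 11 other settings and in 2 of 9 fits that left out an array, and its difference was -0.26 after quantile normalization (limma adjusted p = 0.456). Scn8a was called in 6 of 11 and in 4 of 9. Its difference was -0.49 in the fit of all 19 arrays with the normalization set as a block (limma adjusted p = 0.88). That fit links these groups only by a chain through the YFP arrays and then single naive arrays. Scml4 kept a difference of -2.72 or lower in all 20, and lost its call only in that fit (limma adjusted p = 0.0584) and with the set as a random block over the 11 arrays (0.0927). No set held both unsorted Tfh and CXCR5lo PD-1lo arrays, so without the YFP and naive arrays set and group cannot be told apart. Of the 2 further Pgm2l1 probe sets, 1 was lower in unsorted Tfh cells by 1.54 on the log2 scale (limma adjusted p = 0.0051 over probe sets). The second Ifi213 probe set differed by 0.48, opposite in sign to the first and not called. The second Scn8a probe set differed by 0.90 (limma adjusted p = 0.514) and that of Scml4 by -1.45 (0.351). The count of called genes was 1491 without Bcl6yfp/+ replicate 1, 449 without CXCR5lo PD-1lo replicate 2 and 503 without replicate 3, in place of 800. Of those called, 44.5% were higher in unsorted Tfh cells, against 70.5% after quantile normalization and 71.2% after centring.

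Some markers of other lymphocytes differed in both comparisons, but the B cell sum only in that with CXCR5lo PD-1lo cells. The summed level of 5 CD8 T and NK cell genes was 5.94 to 6.81 on unsorted Tfh arrays, 11.61 to 12.34 on CXCR5lo PD-1lo and 9.94 to 11.55 on naive arrays (log2). Klrd1 and Nkg7 averaged over log2 8 in CXCR5lo PD-1lo cells and Klrd1 alone in naive cells, while Cd8a and Ncr1 were below 3 on every array. Nkg7 was below 3 on naive arrays, and Cd8b1 ran from 5.4 to 7.6 over these groups. Jchain and Sdc1 of the plasma cell list went opposite ways between unsorted Tfh and CXCR5lo PD-1lo cells. Jchain was 2.20 to 7.54 on unsorted Tfh arrays, 7.72 to 10.53 on CXCR5lo PD-1lo arrays, and 2.21 and 5.56 on naive arrays. Sdc1 was 2.27 to 5.33 on unsorted Tfh arrays, 2.20 to 2.61 on CXCR5lo PD-1lo arrays and 2.45 and 2.96 on naive arrays. The summed level of 4 plasma cell genes, of which Xbp1 alone averaged over log2 8 in unsorted Tfh cells, was 10.04 to 11.44 on unsorted Tfh, 10.40 to 11.88 on CXCR5lo PD-1lo and 8.93 to 9.11 on naive arrays, with Tnfrsf17 below 3 on every array. That of 6 B cell genes was 4.84 to 5.01 on unsorted Tfh, 5.94 to 6.05 on CXCR5lo PD-1lo and 4.79 to 5.01 on naive arrays. Cd79a, Pax5, Blk and Ebf1 were below 3 throughout. Cd79b was 5.26 to 5.36 on CXCR5lo PD-1lo arrays and 2.19 to 2.33 on unsorted Tfh arrays. Ms4a1 went the other way, with 2.33 to 2.54 on CXCR5lo PD-1lo arrays and 2.49 to 3.10 on unsorted Tfh arrays. The summed level of 4 naive T cell genes was 13.44 to 14.03 in unsorted Tfh, 14.87 to 15.43 in CXCR5lo PD-1lo and 15.44 to 15.81 in naive cells. The part of these cells in the results was not tested.

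Between CXCR5lo PD-1lo and naive cells 0 of the 5 genes were called, where 6.85% of all genes were called, 5.74% higher and 1.11% lower (limma, 680 of 9930, with 2352 at an unadjusted p under 0.05). The Scml4 difference was 0.10 ± 0.73 (limma adjusted p = 0.938), with a 95% interval of -1.51 to 1.72. Scn8a differed by 0.17 ± 0.52 (limma adjusted p = 0.854), both groups near the floor and without overlap, as in 48% of all genes with CXCR5lo PD-1lo higher. Acpp was lower in CXCR5lo PD-1lo cells by 1.16 ± 0.32 without passing the threshold (limma adjusted p = 0.0591), and Pgm2l1 had -0.89 ± 0.31 (0.119). Both sets of groups were without overlap, as were 6.16% of all genes with CXCR5lo PD-1lo lower. Relative to the median of all genes the differences were -1.62 for Acpp, -1.36 for Pgm2l1, -0.88 for Ifi213, -0.36 for Scml4 and -0.30 for Scn8a. After quantile normalization both were called, at -1.94 (limma adjusted p = 0.00381) and -1.65 (0.00192), and likewise after centring (0.0184 and 0.00324). Ifi213 had -0.42 ± 0.35 (limma adjusted p = 0.465). The median of the 5 was -0.42, against 0.46 over all genes. The share of called genes that were higher in CXCR5lo PD-1lo cells was 83.8% as deposited, 49.1% after quantile normalization and 47.7% after centring. Without naive replicate 1 the count of calls was 337 and without naive replicate 2 it was 387. No set held both groups, so set and group cannot be told apart here. The groups also differ in tissue (lymph node against spleen) and immunization, which cannot be told apart from cell type.

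**Figure D3:**
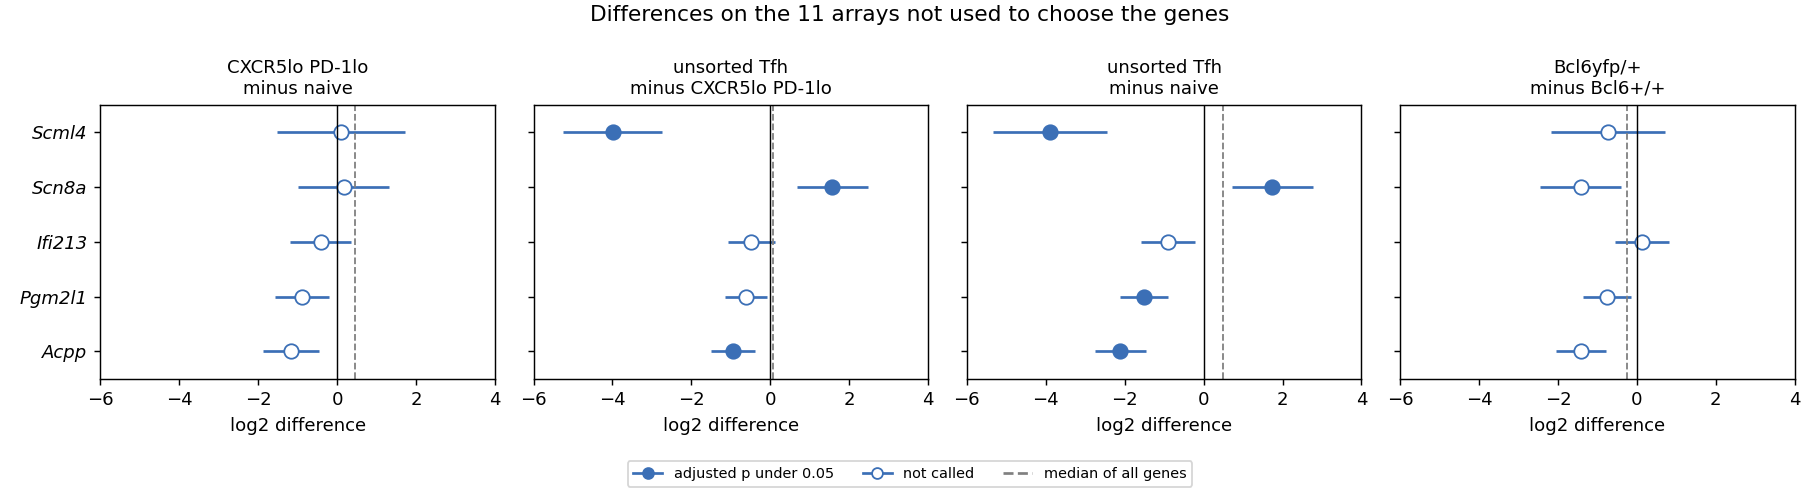
Log2 differences of the 5 genes (rows) in 4 comparisons among the 11 arrays not used to choose them, with 95% intervals of limma's fit, filled points for adjusted p under 0.05 and a dashed line at the median of all genes. Scml4, Pgm2l1 and Acpp lie left of 0 and Scn8a right of it in unsorted Tfh minus naive cells (-3.89, -1.52, -2.11 and 1.74), and no point is filled for Bcl6yfp/+ minus Bcl6+/+.

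Between Bcl6yfp/+ and Bcl6+/+ unsorted Tfh cells, 0 of the 5 genes were called and 0 of all genes (0%), with 146 at an unadjusted p under 0.05 in limma's fit. The replicate block, too, called 0 genes. Acpp had the largest ratio of difference to error, with 6.53, 6.84 and 6.51 in Bcl6yfp/+ cells against 8.53, 7.74 and 7.89 in Bcl6+/+ cells, a difference of -1.42 ± 0.29 (limma adjusted p = 0.924, unadjusted p = 0.000495). Pgm2l1 had -0.75 ± 0.28 (limma adjusted p = 0.924). In both genes the genotypes did not overlap, as in 4.43% of all genes with Bcl6yfp/+ lower and 0.151% with it higher. Scn8a had -1.42 ± 0.47 with overlapping groups (limma adjusted p = 0.924), Scml4 -0.73 ± 0.65 (0.924) and Ifi213 0.13 ± 0.31 (0.934). The median of the 5 was -0.75, against -0.26 over all genes, and relative to that median Acpp and Scn8a had -1.16, Pgm2l1 -0.49, Scml4 -0.47 and Ifi213 0.40.

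Set 6 holds both genotypes, with 2 arrays each. There Bcl6yfp/+ minus Bcl6+/+ was -1.14 for Acpp, -1.86 for Scn8a, -0.53 for Pgm2l1, -0.20 for Scml4 and -0.23 for Ifi213. With the set as a random block 77 genes were called in limma's fit, among them Acpp (-1.17, adjusted p = 0.00145), Scn8a (-1.82, 0.0434) and Pgm2l1 (-0.56, 0.0484). That fit estimated a correlation of 0.952 within sets. With the set as a fixed block over all 19 arrays, 4 genes were called and none of the 5. The genotypes differ in day as well, since the 3 Bcl6yfp/+ arrays are of day 7 and 2 of 3 Bcl6+/+ arrays of day 10. On the day 7 Bcl6+/+ array the Acpp level was 7.89 and that of Pgm2l1 8.62, each above the 3 Bcl6yfp/+ arrays. Day 10 minus day 7 within Bcl6+/+ cells was 0.25 for Acpp and -0.08 for Pgm2l1.

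For each gene the 3 most similar patterns were taken by Pearson correlation of log2 levels. These values describe 19 arrays in 6 groups, so they mostly follow differences between groups, and the arrays share normalization sets. Scml4 was most like Klf2 (r = 0.96 over 19 arrays and 0.951 over the 11 without YFP arrays), S1pr1 (0.949 and 0.961) and Gm11346 (0.948 and 0.968). Klf2 is a transcription factor of quiescent T cells and S1pr1 the receptor that lets them leave lymph nodes. Klf2 averaged 4.89 in YFP-positive, 8.56 in YFP-negative, 8.54 in Bcl6yfp/+, 8.99 in Bcl6+/+, 11.55 in CXCR5lo PD-1lo and 11.79 in naive cells, the same 3 steps as Scml4. Those 3 genes were called with Scml4 in the reporter contrast that chose it.

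Scn8a was most like Tctex1d1 (r = 0.874 over 19 arrays and 0.894 over 11), Ttyh1 (0.87 and 0.763) and Esm1 (0.859 and 0.824). Ttyh1, a membrane protein of the tweety family, averaged 7.46 in YFP-positive, 8.40 in YFP-negative, 7.31 in Bcl6yfp/+, 7.37 in Bcl6+/+, 5.91 in CXCR5lo PD-1lo and 6.47 in naive cells. Ifi213 was most like Ifit1bl1 (0.917 and 0.776), Gbp7 (0.911 and 0.759) and Klf2 (0.905 and 0.719). Gbp7 is an interferon-induced guanylate-binding protein, and it averaged 10.60 in YFP-positive, 11.77 in YFP-negative and 12.92 in naive cells. The correlations of Ifi213 were weaker over the 11 arrays than over all 19.

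Acpp was most like H2-Ob (r = 0.912 over 19 arrays and 0.917 over 11), Zfp874a (0.886 and 0.928) and Mob3b (0.88 and 0.914), and Pgm2l1 most like Zfp874a (0.895 and 0.893), Pde2a (0.853 and 0.732) and H2-Ob (0.847 and 0.906). Zfp874a and H2-Ob thus stood on both lists. H2-Ob, a chain of the class II accessory molecule that restrains peptide loading, averaged 7.38 in YFP-positive, 8.72 in YFP-negative, 7.42 in Bcl6yfp/+, 8.28 in Bcl6+/+, 9.38 in CXCR5lo PD-1lo and 11.49 in naive cells. Pde2a hydrolyses cyclic nucleotides and had the Bcl6yfp/+ cells low as well, at 7.36 against 9.51 in Bcl6+/+ cells. Among the 5 genes themselves, Pgm2l1 and Acpp had the highest correlation (0.917 over 19 arrays and 0.94 over 11), followed over 19 arrays by Scml4 and Ifi213 (0.881, and 0.608 over 11). Scn8a had between -0.23 and 0.33 with the other 4 over 19 arrays and between -0.61 and -0.33 over 11.

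**Figure D4:**
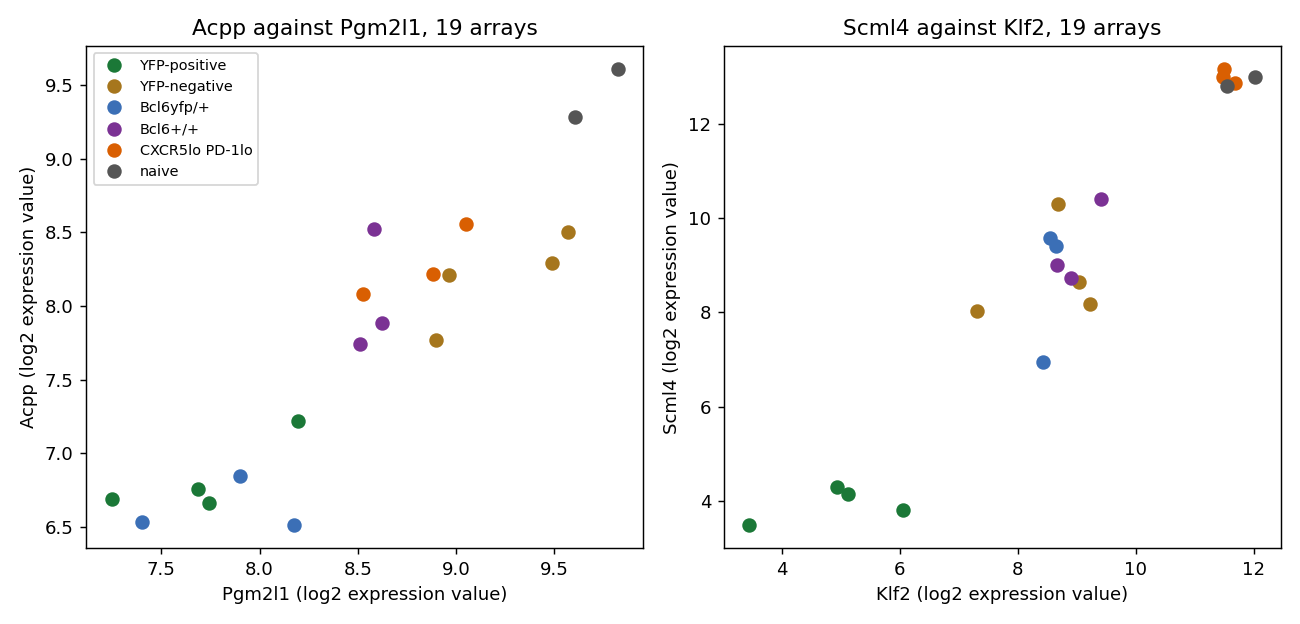
Levels on the 19 arrays (log2 expression values on both axes, colour by group) of Acpp against Pgm2l1 and of Scml4 against Klf2. YFP-positive and Bcl6yfp/+ arrays lie together at the low end for Acpp and Pgm2l1 (r = 0.917), while for Scml4 and Klf2 (r = 0.96) Bcl6yfp/+ arrays lie with YFP-negative and Bcl6+/+ arrays.

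Relatives of the 5 genes were taken from family lists. Only 1 of 11 voltage-gated sodium channel genes with a probe set passed the filter, Scn11a, the pore-forming subunit of another channel. It averaged 6.99 in YFP-positive, 9.33 in YFP-negative, 6.82 in Bcl6yfp/+, 8.75 in Bcl6+/+, 2.68 in CXCR5lo PD-1lo and 2.24 in naive cells. Like Scn8a it passed only through Tfh arrays, its means in the other groups being near the floor, so these differences depend on the floor. Unsorted Tfh cells were higher than CXCR5lo PD-1lo cells by 5.10 ± 0.45 (limma adjusted p = 4.58e-05) and higher than naive cells by 5.55 ± 0.51 (2.9e-05). Of 7 PYHIN genes 5 passed, and 1 was called in each of these comparisons, Ifi204, whose product takes part in interferon responses. Of all genes 3.59% were called higher than in CXCR5lo PD-1lo cells and 19.1% higher than in naive cells. The count thus describes a single gene and not the list. The Ifi204 difference was 4.24 from CXCR5lo PD-1lo cells (limma adjusted p = 0.00257) and 6.18 from naive cells (0.000238). Its mean was 4.68 in CXCR5lo PD-1lo cells and 2.74 in naive cells. The latter is near the floor, so the size of the second difference depends on the floor. In YFP-positive cells the Ifi204 mean was 8.02, against 7.14 in YFP-negative cells. Mndal, Aim2 and Ifi209, with group means between 10.16 and 14.29, and Ifi203 were not called.

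Of 30 Polycomb and MBT-domain genes 29 passed. Against naive cells 5 were called higher in unsorted Tfh cells and 1 lower, and against CXCR5lo PD-1lo cells 1 was called higher. Of all genes 19.1% were called higher and 4.55% lower than in naive cells, and 3.59% higher than in CXCR5lo PD-1lo cells, so these counts describe single genes and not the list. Their median differences were 0.25 and -0.21, against 0.50 and 0.06 over all genes. The gene called lower than in naive cells was Sfmbt2 (-2.81, limma adjusted p = 0.00266), an MBT-domain protein. Those called higher were Ezh2, the histone methyltransferase of Polycomb complexes (2.10, limma adjusted p = 0.000211), Pcgf2 (3.18, 0.00118), Cbx6 (1.57, 0.015), Jarid2 (1.27, 0.0196) and Phc2 (1.01, 0.0124, lost after quantile normalization at 0.117). Pcgf2 was the gene called against CXCR5lo PD-1lo cells (1.75, limma adjusted p = 0.0326). Its means of 2.46 in naive and 3.89 in CXCR5lo PD-1lo cells were under log2 4, so the sizes of its calls depend on the floor. Ezh2 was the only one of the list called between CXCR5lo PD-1lo and naive cells (1.78, limma adjusted p = 0.00361). Of all genes 5.74% were called higher there.

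Of 15 hexose phosphate and glycogen genes 13 passed, and against naive cells 4 were called higher in unsorted Tfh cells and 1 lower, where 19.1% and 4.55% of all genes were. Higher were the hexokinases Hk2 (4.96, limma adjusted p = 0.000404) and Hk1 (1.29, 0.0152, lost after quantile normalization at 0.132), the glycogen primer Gyg (1.96, 0.008) and Pgm1 (1.44, 0.0207). Muscle glycogen phosphorylase Pygm was lower (-2.28, limma adjusted p = 0.03), with a mean of 3.09 in unsorted Tfh cells, under the filter's log2 4. Pmm1 was the one gene called against CXCR5lo PD-1lo cells (-1.76, limma adjusted p = 0.0116, lost after quantile normalization at 0.0669). Of all genes 4.47% were called lower there. CXCR5lo PD-1lo cells were higher than naive cells in Hk2 (6.07, limma adjusted p = 0.000586), where 5.74% of all genes were called higher. Hk2 averaged 2.70 in naive cells, near the floor, so the sizes of both its differences from naive cells depend on the floor. The list had median differences of 0.50 from naive and -0.09 from CXCR5lo PD-1lo cells, against 0.50 and 0.06 over all genes.

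Of 12 ectonucleotidase, adenosine and acid phosphatase genes 8 passed. Against naive cells 3 were called higher in unsorted Tfh cells and 1 lower, where 19.1% and 4.55% of all genes were. Against CXCR5lo PD-1lo cells 1 was called higher and 2 lower, where 3.59% and 4.47% of all genes were. Nt5e, which like Acpp's product makes adenosine from AMP, was higher in unsorted Tfh cells than in CXCR5lo PD-1lo cells by 1.06 (limma adjusted p = 0.038) and than in naive cells by 1.90 (0.00154), the opposite sign to Acpp. The adenosine carrier Slc29a1 was higher than in naive cells in unsorted Tfh cells (3.78, limma adjusted p = 0.000523) and in CXCR5lo PD-1lo cells (3.81, 0.00281), and Dpp4 in unsorted Tfh cells (1.34, 0.00887). The acid phosphatase Acp5 was lower in unsorted Tfh cells than in CXCR5lo PD-1lo cells by 1.11 (limma adjusted p = 0.0437) and than in naive cells by 1.36 (0.0163). Acp6 was lower than in CXCR5lo PD-1lo cells by 0.95 (limma adjusted p = 0.0495, lost after quantile normalization at 0.213). The list's median differences were 0.60 from naive and 0.04 from CXCR5lo PD-1lo cells, against 0.50 and 0.06 over all genes. No gene of any of the 5 lists was called between Bcl6yfp/+ and Bcl6+/+ cells, nor was any other gene in that fit.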

How the data were processed

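Total RNA of 19 sorted samples was amplified and hybridised as biotin-labelled cDNA, 1 array per sample. What was deposited is a log2 level for each probe set, made by the authors with GCRMA (named in the submitters' processing notes; its version is not stated in the sources used). The scale has its floor near 2, and its lowest value was 1.64. Array medians ran from 2.40 to 2.99, and no 2 columns were identical.

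Of 45101 probe sets, 34945 carried 1 symbol in the platform annotation, 932 several and 9160 none, and 64 were controls; 34741 matched the RefSeq table of GRCm38.p6 by Entrez identifier. Those that reached log2 4 on at least 2 arrays were kept (18626), with the highest mean for each of 9930 genes. Arrays whose sorted values differed by under 0.06 on average were taken as 1 normalization set (largest difference inside a set 0.0482, smallest across sets 0.0666).

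Linear models with eBayes (limma 3.58.1, R 4.3.3) were fitted to 11 arrays of 4 groups, with unsorted Tfh as the mean of the Bcl6yfp/+ and Bcl6+/+ groups; adjusted p-values are Benjamini-Hochberg over all genes. Tested on simulated data over 9930 genes, the fit recovered, of 100 genes changed by 1 and 100 changed by 2 on the log2 scale, 6 and 60 between unsorted Tfh and naive cells, 16 and 76 between unsorted Tfh and CXCR5lo PD-1lo cells, 1 and 37 between CXCR5lo PD-1lo and naive cells, and 5 and 63 between the genotypes. A gene that was not called may thus still differ. The simulated noise was independent between arrays and had no normalization sets, and genes of the highest spread were left unchanged. These counts may therefore not hold for the real arrays. In each comparison 1 to 9 unchanged genes were called. The genes and lists were chosen with earlier results of these data known, and no list of relatives is independent evidence. Named genes are the 5, the 3 most correlated with each, the sort markers, Klf2, S1pr1, and list members called in a comparison. Bcl6 genotype arrays of equal number deviated together (correlations 0.64, 0.60 and 0.57). So did Bcl6yfp/+ replicate 2 with Bcl6+/+ replicate 3 (0.555) and replicate 3 with replicate 2 (0.427). Replicates 2 and 3 of both genotypes lie in set 6, so these correlations do not show that the numbers pair samples. Bcl6yfp/+ and CXCR5lo PD-1lo arrays of equal number did not deviate together (-0.26, 0.13 and -0.28). Marker lists covered B cells, plasma cells, myeloid and dendritic cells, CD8 T and NK cells, erythroid cells and platelets, stromal and endothelial cells, CD4 T cells, Tfh cells, naive T cells and sex-linked transcripts. On no group's mean did more than Cst3 of 8 myeloid, Pecam1 of 6 stromal and 0 of 4 erythroid genes reach log2 8; 5 or 6 of 6 Tfh genes did in the immunized groups and 2 in naive cells. The labels do not say whether replicates were different animals; p-values thus reflect only how far these samples spread, possibly for technical reasons. Alternatives were quantile normalization, centring, other filters, the mean of a gene's probe sets, all 19 arrays, set and replicate blocks, an intensity trend, day 7 arrays and leaving out each array. Promoters are from RefSeq (4 of 5 genes).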

Additional observations from a re-analysis of the deposited data

Results flagged for a closer look

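Acpp on the YFP-positive arrays had 1 value apart from the rest. Replicate 4, the day 10 array, had 7.22, against 6.66, 6.69 and 6.76 on the day 7 replicates. It also differed from them in Xist and Y-linked transcripts. Its gap to the nearest array was 0.83 of the group's range, just past the limit Dixon's test sets for 4 values. Chance gives such a result in about 1 of 20 groups, and 10 groups of 4 arrays were tested. Leaving out each array in turn, that one included, gave YFP-positive minus YFP-negative differences of -1.502 to -1.26 for Acpp.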

How the results depend on the processing

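Of 540 values recomputed under other settings, 446 kept their direction, call or size; 16 reversed, 33 lost and 14 gained a call, and 31 moved. In the reporter contrast, which chose the genes, only quantile normalization, the replicate block and leaving out each array were run, and no stability is read from them. In the unsorted Tfh minus naive comparison, genes called numbered 4047 with the normalization set as a random block, 992 to 5015 without single arrays, and 3 to 5 of the 5 genes were called without single arrays. In unsorted Tfh minus CXCR5lo PD-1lo, genes called numbered 2069 after quantile normalization, 1791 after centring, 1341 with the mean of a gene's probe sets, 393 with all 19 arrays and the set as a block, 195 with it as a random block, and 449 to 1491 without single arrays. Of the 5 genes there, 0 were called with either set block, 1 with an intensity trend, and 1 to 3 without single arrays; with the set as a block Scn8a had -0.490 and Ifi213 0.619. In CXCR5lo PD-1lo minus naive, genes called numbered 1185 with all 19 arrays, 2319 with the set as a block, 437 with it as a random block, and 337 to 648 without single arrays; of the 5 genes, 2 were called after quantile normalization, 2 after centring and 1 with all 19 arrays. Small differences there turned: Scml4 to -0.382 (quantile), -0.573 (centred), -0.197 (mean of probe sets), -0.798 (set as a block) and -0.796 (random block), Scn8a to -0.510 (centred) and -0.301 (mean of probe sets), and Ifi213 to 0.017 (random block). Between Bcl6yfp/+ and Bcl6+/+, 4 genes were called with the set as a block and 77 with it as a random block, 3 of the 5 genes among the 77. Ifi213 there turned to -0.077 (mean of probe sets), -0.225 (block) and -0.187 (random block) and ran from -0.076 to 0.289 without single arrays, and Scml4 from -1.198 to 0.127, above 0 without Bcl6yfp/+ replicate 1. The cause of these changes was not tested.

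The replicate block left 0 genes called between the genotypes. Against CXCR5lo PD-1lo cells, whose numbers do not pair with those of unsorted Tfh cells, the block called 732 genes and 2 of the 5, with Acpp at -0.945 (limma adjusted p = 0.113), and changed no other call of the 5. Few arrays and inferred normalization sets limit every comparison. Sex-linked transcripts limit those other than Bcl6yfp/+ against Bcl6+/+ cells, whose arrays all had Y-linked transcripts. Levels near the floor limit Scn8a and the Scml4 ratios with YFP-positive cells.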
